A study of Mus musculus with 6 samples.

Results

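The Id family of mouse mammary gland was measured on 6 Affymetrix arrays, 3 from luteinizing hormone (LH) transgenic mice and 3 from wild type mice. Its 4 genes, Id1, Id2, Id3 and Id4, were found through the 4 of 12488 probe sets whose platform annotation names exactly one gene, that gene being of the family, out of 8251 genes so annotated. Each gene had 1 probe set, and 0 probe sets named an Id gene together with another gene, so no gene could be checked with a second probe set. The family was chosen because its members differ in opposite directions between the LH transgenic and wild type arrays, and its values in that contrast are therefore given as a description, without a test. The LH transgenic mice overexpress LH, the pituitary hormone that drives the gonads to make sex steroids, and were 16 weeks old and virgin. The wild type mice had the same age, the same F1 CF-1/FVB background and the same virgin state, and thoracic glands were taken from both groups. Each array held pooled RNA of 3 mice, so each group stands for 9 mice, and standard deviations (SD) rest on the spread between 3 pools. Standard errors and p-values come from limma, which combines that spread with the spread of the other tested probe sets. The promoter that drives the transgene is not given in the sources used here.

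Id proteins are small helix-loop-helix proteins that lack the basic region with which their relatives bind DNA. They pair with E proteins, the widely expressed basic helix-loop-helix (bHLH) factors, and so keep them and their tissue-specific partners away from E-box sequences, which tends to hold cells back from differentiation. Id genes are classical targets of bone morphogenetic protein (BMP) signalling through Smad proteins. In the mouse mammary gland, Id2 is needed for alveolar development in pregnancy and Id4 for growth of the ducts, whereas Id1 and Id3 are best known from endothelial cells.

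Because Id2 and its relatives differed in opposite directions, the stretches before the annotated starts of their genes are shown for 3 of the 4 members, Id2, Id3 and Id4, from RefSeq on build GRCm38.p6. Each stretch is the 250 bases upstream of the start, read 5′ to 3′ on the strand of the gene. Capitals mark CCAAT boxes, in either orientation (CCAAT or ATTGG), and GGCGCC, the palindromic GC element that Smad proteins bind. Id2 lies at chr12:25096093-25096342 on the minus strand, Id3 at chr4:136143572-136143821 and Id4 at chr13:48260866-48261115, both on the plus strand.
Id2: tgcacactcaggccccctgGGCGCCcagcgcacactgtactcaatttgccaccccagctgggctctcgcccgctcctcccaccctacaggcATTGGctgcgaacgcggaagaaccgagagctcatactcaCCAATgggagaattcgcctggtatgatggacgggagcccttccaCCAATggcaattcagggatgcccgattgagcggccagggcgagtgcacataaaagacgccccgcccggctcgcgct
Id3: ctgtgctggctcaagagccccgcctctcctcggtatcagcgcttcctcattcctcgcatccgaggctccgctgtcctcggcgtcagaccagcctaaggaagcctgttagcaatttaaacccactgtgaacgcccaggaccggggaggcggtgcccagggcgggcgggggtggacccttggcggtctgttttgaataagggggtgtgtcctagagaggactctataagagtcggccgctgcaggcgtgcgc
Id4: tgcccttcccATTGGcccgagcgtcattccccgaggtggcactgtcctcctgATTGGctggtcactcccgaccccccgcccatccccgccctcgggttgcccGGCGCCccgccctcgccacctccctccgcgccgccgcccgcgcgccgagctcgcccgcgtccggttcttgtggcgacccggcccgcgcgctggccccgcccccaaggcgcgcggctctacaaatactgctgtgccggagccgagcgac

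Id2 held 3 CCAAT boxes, with first bases 159, 120 and 76 bases upstream of the start, and Id4 held 2, at 240 and 198 bases, while Id3 held 0. A CCAAT box in either orientation occurred in 33.8% of the 32851 windows of this length in the table. GGCGCC occurred once in Id2, 231 bases upstream, and once in Id4, 148 bases upstream, but 0 times in Id3, against 9.59% of all windows. The STAT element TTCNNNGAA, searched on both strands, was found 0 times in the 3 windows and in 7.02% of all windows. An E box, CANNTG, stood once in Id2 and 0 times in Id3 and Id4, although 66.2% of all windows held one. The windows of Id2 and Id3 were both 62.8% G and C and that of Id4 75.6%, against a median of 52.4%. GGGCGG, the GC box of Sp1, stood once in Id2, 2 times in Id3 and 5 times in Id4, and in 32.7% of all windows. The TATA box TATAAA and the cyclic AMP element TGACGTCA were found 0 times in the 3 windows, against 12.4% and 1.55% of all windows. Among these motifs only the E box was present in Id2 and absent from both other windows, and the matches describe letters only.

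The 6 arrays share one overall level, with trimmed means of the signal at 1500.8 in 5 pools and 1500.9 in LH transgenic pool 2. The mean signal of Id2 stood at the 96.3 percentile of all probe sets other than controls, that of Id3 at the 78.0, that of Id1 at the 69.2 and that of Id4 at the 66.7 percentile, so the 4 probe sets were well above the brightness filter at the 40 percentile. Signals of different probe sets are not comparable as levels. Of 7453 probe sets that passed the filter, 1586 changed between the groups at a Benjamini-Hochberg adjusted p under 0.05 by limma, 781 higher and 805 lower in LH transgenic glands. Without wild type pool 3, 949 changed (443 higher and 506 lower), and 502 and 515 were higher without wild type pool 1 and without LH transgenic pool 1. The arrays also differed in cells other than epithelium. The 14 tested skeletal muscle markers had a median log2 difference of -1.30. The summed signals of all 18 on the array were 21904 and 26543 in LH transgenic pools 1 and 2 and 88044 in pool 3. In the wild type pools they were 98269 to 111418. In bulk tissue, fewer cells of a type and less RNA per cell cannot be told apart. The gland itself was recognisable by its casein and keratin signals, as Csn2, beta-casein, averaged 74506 ± 2451 in LH transgenic and 40554 ± 6247 in wild type glands (SD, n = 3 each; log2 0.89, limma adjusted p 0.00163, but 0.20 and not called after bacterial control scaling, in which each array is divided by its 9 bacterial hybridisation controls). Krt18, a luminal keratin, averaged 13650 ± 1931 in LH transgenic and 13208 ± 1081 in wild type glands (log2 0.04, adjusted p 0.87, and -0.65 after bacterial control scaling). The basal keratin genes Krt5, Krt14 and Krt15 lay below the brightness filter.

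Id2 was the single member with a higher signal in LH transgenic glands. It had signals of 11125.0, 10461.6 and 19588.6 in LH transgenic pools 1, 2 and 3, against 6697.2, 7804.1 and 4655.8 in wild type pools 1, 2 and 3. The groups did not overlap, and the highest value came from LH transgenic pool 3 and the lowest from wild type pool 3. The mean of 13725 ± 5089 in LH transgenic glands was 2.15 times that of 6386 ± 1597 in wild type glands (SD, n = 3 each). On the log2(signal + 80) scale, with a pseudocount of 80 signal units, the difference was 1.07 with a limma standard error (SE) of 0.26. It was 0.78 without LH transgenic pool 3.

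Id1, Id3 and Id4 were lower in LH transgenic glands. Id1 had 855.1, 1172.0 and 722.6 in LH transgenic pools 1, 2 and 3, against 2044.1, 1776.4 and 2152.4 in the wild type pools. Every LH transgenic pool lay below every wild type pool, with means of 916.6 ± 230.9 in LH transgenic and 1991 ± 193.5 in wild type glands (log2 -1.08, SE 0.18). Id3 had 830.6, 1807.2 and 1372.9 in the LH transgenic pools, against 3086.6, 2899.7 and 3201.7 in the wild type pools. The 3 wild type values were close together, the highest being 1.10 times the lowest, whereas the LH transgenic values spread by a factor of 2.18. The means were 1337 ± 489.3 in LH transgenic and 3063 ± 152.4 in wild type glands (log2 -1.21, SE 0.23). Id4 had 620.8, 836.2 and 920.2 in the LH transgenic pools, against 2048.1, 1546.6 and 1753.3 in the wild type pools. Again every LH transgenic pool lay below every wild type pool, with means of 792.4 ± 154.4 in LH transgenic and 1783 ± 252.0 in wild type glands (log2 -1.10, SE 0.18). The means of Id1, Id3 and Id4 were thus 2.17, 2.29 and 2.25 times higher in wild type than in LH transgenic glands.

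**Figure D1:**
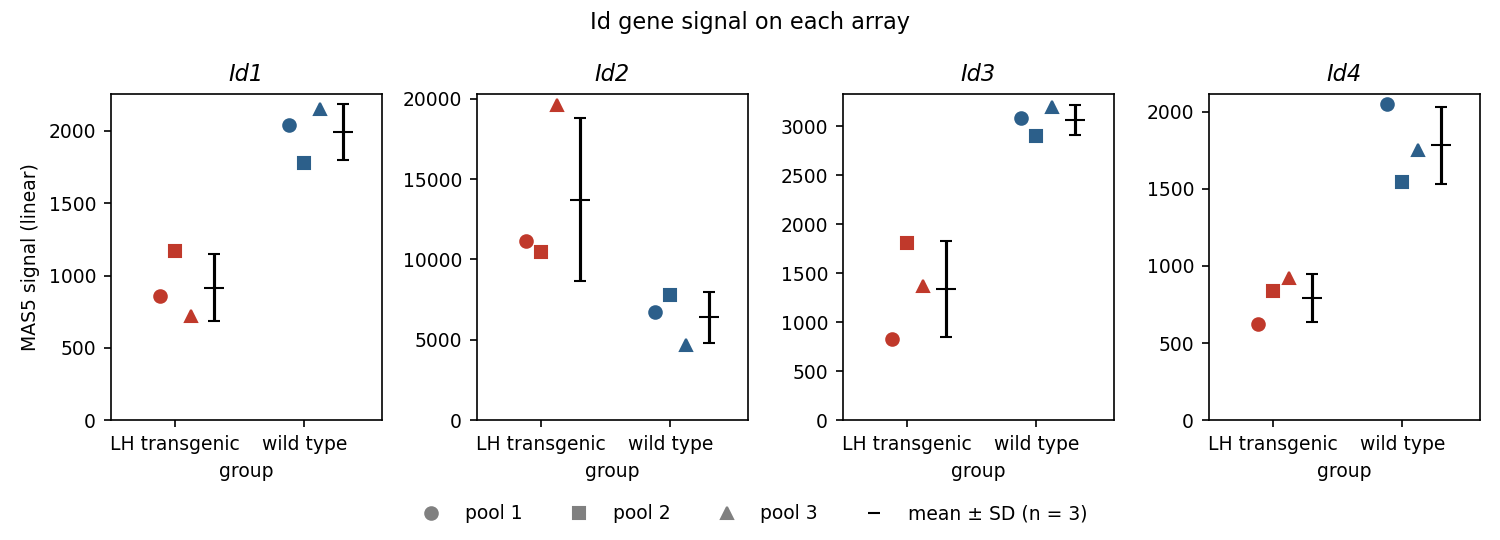
MAS5 signal (linear axis from 0) of Id1, Id2, Id3 and Id4 in each pool, LH transgenic pools in red left of wild type pools in blue. Points are single arrays, and black bars are the mean ± SD of 3 arrays. In each panel the groups do not overlap, with Id2 higher in LH transgenic pools (10461.6 to 19588.6 against 4655.8 to 7804.1) and the other genes lower.

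All 4 members had groups that did not overlap, as had 40.4% of the 7453 tested probe sets (20.6% higher and 19.8% lower). A difference of at least 2-fold was reached by Id2 upward, as by 3.11% of the tested probe sets, and by Id1, Id3 and Id4 downward, as by 4.17%. The family was selected on this contrast, so nothing is read from these counts. The median difference of the 4 members was -1.09, against 0.023 for all tested probe sets. Bacterial control scaling moved the median of all probe sets to -0.623 and the difference of Id2 to 0.38 (SE 0.24), with Id1 at -1.72, Id3 at -1.87 and Id4 at -1.74. Relative to the median of all probe sets, the difference of Id2 was 1.01 on that scale and 1.04 on the deposited scale, and those of Id1, Id3 and Id4 were -1.10, -1.25 and -1.12 with the bacterial controls and -1.10, -1.23 and -1.12 as deposited.

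The shift of Id2 relative to each other member does not depend on how an array is scaled, apart from the pseudocount. Against the wild type mean, the log2 ratio of Id2 to Id1 was 1.97, 1.46 and 3.00 in LH transgenic pools 1, 2 and 3 and 0.06, 0.47 and -0.53 in the wild type pools. The ratio of Id2 to Id3 was 2.61, 1.47 and 2.75 in the LH transgenic pools and 0.09, 0.39 and -0.48 in the wild type pools. The ratio of Id2 to Id4 was 2.23, 1.75 and 2.53 in the LH transgenic pools and -0.10, 0.50 and -0.40 in the wild type pools. In each pair LH transgenic pool 2 was the lowest of its group, and still lay above all 3 wild type pools. Among the members that were lower, the ratios moved little, with mean shifts of 0.13 for Id1 to Id3, 0.03 for Id1 to Id4 and -0.11 for Id3 to Id4. These shifts lay within the standard deviations of the LH transgenic pools, which were 0.46, 0.43 and 0.35. Those of the wild type pools were smaller, at 0.07, 0.15 and 0.16, and the shift of Id1 to Id3 exceeded its wild type value.

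Within a group, which the choice of the family did not use, the members did not follow one order. On the log2 scale, relative to its group mean, LH transgenic pool 3 stood at 0.57 for Id2 but at -0.29 for Id1. LH transgenic pool 1 stood at -0.58 for Id3, -0.30 for Id4 and -0.07 for Id1, and was the lowest of its group for Id3 and Id4. Wild type pool 2 was the highest of its group for Id2 (0.32) and the lowest for Id1 (-0.15), Id3 (-0.08) and Id4 (-0.19). With 3 pools per group these orders are described and not tested.

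The E proteins, the direct partners of Id proteins, were measured by 3 tested genes, of which 1 fell and 0 rose. Over all tested probe sets 21.3% were called. Tcf4, also called E2-2, had 1576.2, 2227.3 and 1673.7 in the LH transgenic pools against 4043.3, 3143.9 and 2626.5 in the wild type pools. It fell by 0.81 on the log2 scale (SE 0.19, limma adjusted p 0.0152), and the call was lost without wild type pool 1 and without LH transgenic pool 1. Tcf3, which encodes the E2A proteins, averaged 499.1 ± 18.4 in LH transgenic and 426.3 ± 103.6 in wild type glands (log2 0.22, adjusted p 0.509, and -0.38 after bacterial control scaling). Tcf12, which encodes HEB, averaged 4523 ± 729.2 in LH transgenic and 4150 ± 154.9 in wild type glands (log2 0.11, adjusted p 0.62, and -0.57 after bacterial control scaling).

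Of the tissue-specific bHLH factors that E proteins pair with, 22 had a probe set and 8 passed the brightness filter, of which 3 fell and 0 rose. The E proteins, this list and all gene lists below were chosen with earlier results of these data known. Their counts can be read against 21.3% of all probe sets called. Twist1, a factor of mesenchymal cells, averaged 660.7 ± 190.3 in LH transgenic and 1607 ± 75.0 in wild type glands (log2 -1.22, SE 0.19, adjusted p 0.0024). Twist2, its close relative, averaged 649.6 ± 160.8 in LH transgenic and 1176 ± 287.9 in wild type glands (log2 -0.78, adjusted p 0.0324), a call lost under 6 of 15 other settings. Lyl1, a factor of blood and endothelial cells, averaged 805.1 ± 17.6 in LH transgenic and 1418 ± 159.6 in wild type glands (log2 -0.75, adjusted p 0.00598). Among the Hes, Hey and Bhlhe repressors 2 of 4 tested genes fell, namely Hey1, a Notch target (695.6 ± 44.2 in LH transgenic and 1102 ± 97.3 in wild type glands, log2 -0.61, adjusted p 0.0176), and Bhlhe40 (1257 ± 182.2 in LH transgenic and 1910 ± 191.2 in wild type glands, log2 -0.58, adjusted p 0.0247). Their calls were lost under 3 of 15 and 4 of 16 other settings. Among 10 bHLH leucine zipper factors 1 fell, the Myc relative Mycl (397.6 ± 90.1 in LH transgenic and 780.7 ± 203.8 in wild type glands, log2 -0.84, adjusted p 0.0317), a call lost under 5 of 15 other settings.

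Genes upstream of the Id genes in BMP signalling had calls in both directions on the deposited scale only, where 21.3% of all tested probe sets were called. After bacterial control scaling 0 of them rose. On that scale 5 of 5 tested ligands and antagonists, 3 of 5 receptors and 4 of 5 Smads fell. The values that follow are as deposited unless stated. Of 6 tested BMP ligands and antagonists 1 fell and 0 rose (median log2 -0.42). This was Nbl1, which encodes an antagonist of BMP ligands, with 171.5, 164.8 and 417.2 in the LH transgenic pools against 1425.8, 1065.6 and 749.5 in the wild type pools (log2 -1.85, SE 0.32, adjusted p 0.00383). Its LH transgenic mean of 251.2 lay below the brightness filter of 336, which it passed through its wild type values. The ligand gene Bmp4 averaged 471.2 ± 43.9 in LH transgenic and 659.1 ± 53.7 in wild type glands (log2 -0.42, adjusted p 0.109, but -1.03 and called lower after bacterial control scaling, adjusted p 0.00218). Of 5 tested receptor genes 1 rose and 1 fell. Eng, endoglin, a co-receptor of endothelial cells, had 4343.6, 5976.1 and 5503.8 in the LH transgenic pools against 13597.3, 10215.0 and 14717.3 in the wild type pools (log2 -1.27, adjusted p 0.00139). Bmpr1a, a type I BMP receptor, averaged 1333 ± 256.1 in LH transgenic and 833.8 ± 74.1 in wild type glands (log2 0.62, adjusted p 0.0309), a call lost under 7 of 15 other settings, among them bacterial control scaling with a difference of -0.03.

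Of 5 tested Smad genes 1 rose. Smad4, the partner shared by BMP and TGF-beta signals, had 5789.1, 5399.5 and 8243.0 in the LH transgenic pools against 3676.3, 4016.5 and 3401.9 in the wild type pools (log2 0.77, SE 0.17, adjusted p 0.0117). After bacterial control scaling its difference was 0.09 and was not called. Smad1, a transducer of BMP signals, averaged 4522 ± 204.7 in LH transgenic and 4278 ± 706.3 in wild type glands (log2 0.09, adjusted p 0.7, and -0.59 after bacterial control scaling). Smad5, another transducer of BMP signals, lay below the filter with signals of 243.6 to 295.9 in LH transgenic and 106.8 to 209.9 in wild type pools.

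Other proteins that bind Id proteins or set their turnover changed in 1 of 13 tested genes. Ets1, a transcription factor of endothelial and immune cells, averaged 390.4 ± 70.9 in LH transgenic and 828.1 ± 172.5 in wild type glands (log2 -0.94, adjusted p 0.0112). Rb1, the retinoblastoma gene whose product binds Id2, averaged 1250 ± 297.2 in LH transgenic and 1555 ± 456.4 in wild type glands (log2 -0.29, adjusted p 0.42, and 0.08 with adjusted p 0.791 in a dimmer probe set). After bacterial control scaling the brighter probe set was called lower (-0.94, adjusted p 0.00183). Of 4 tested cyclin-dependent kinase inhibitor genes 2 fell and 0 rose. Cdkn2c, p18, averaged 2751 ± 566.7 in LH transgenic and 6633 ± 418.5 in wild type glands (log2 -1.26, SE 0.16, adjusted p 0.000891), and Cdkn1c, p57, averaged 1538 ± 500.8 in LH transgenic and 3401 ± 719.1 in wild type glands (log2 -1.13, adjusted p 0.00905). Cdkn1b, Cdkn2a and Cdkn2b lay below the filter. Ccnd1, cyclin D1, averaged 2812 ± 545.6 in LH transgenic and 3838 ± 321.6 in wild type glands (log2 -0.45, adjusted p 0.0777). Its 2 probe sets disagreed in direction, as the dimmer one had a difference of 0.38 (adjusted p 0.195) and their average -0.04 (adjusted p 0.9). The brighter one was called lower without LH transgenic pool 3 (-0.57, adjusted p 0.0357) and after bacterial control scaling (-1.13, adjusted p 0.00014).

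**Figure D2:**
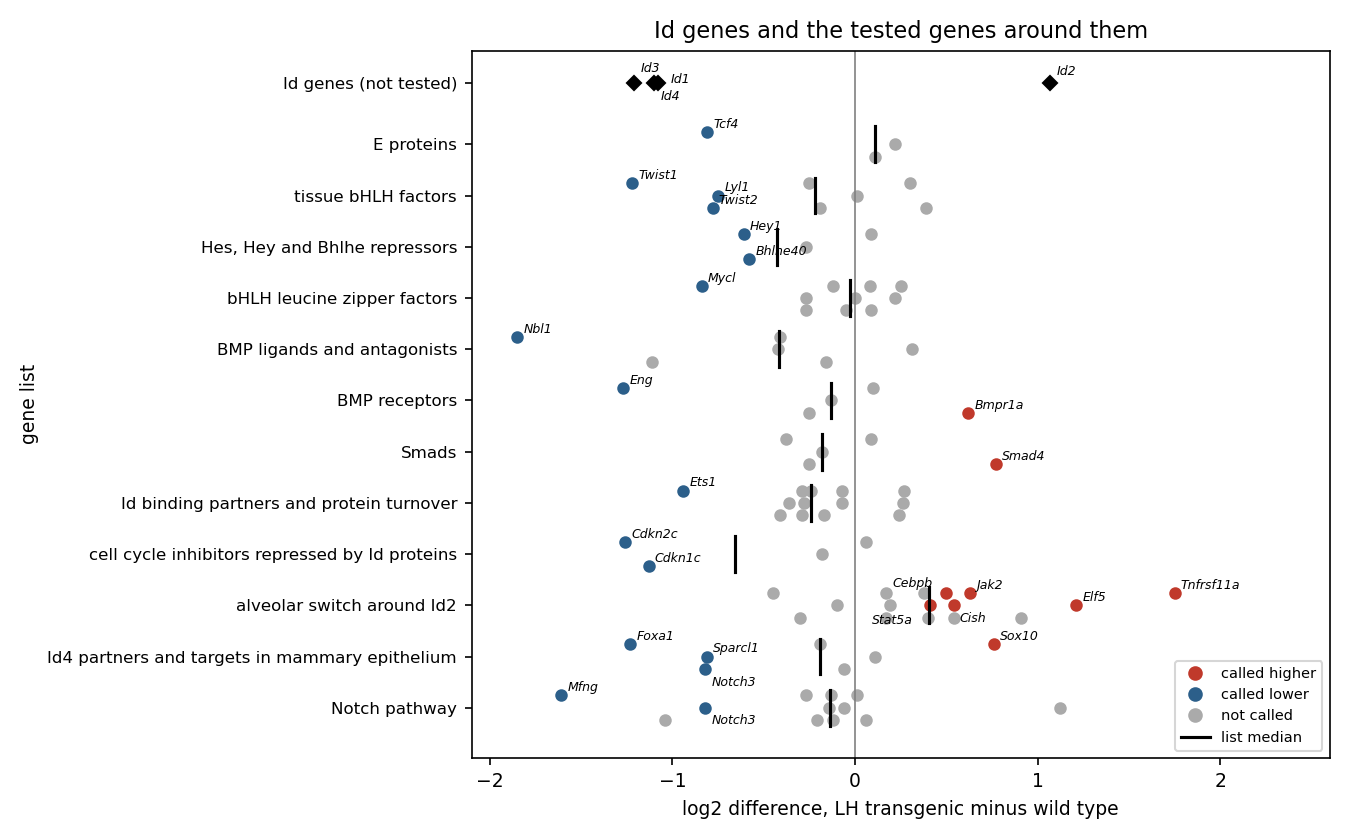
Log2 difference, LH transgenic minus wild type, of the Id genes (black diamonds, not tested) and of every tested gene in 12 lists (points), with black bars at list medians. Red and blue points were called higher and lower by limma at an adjusted p under 0.05, and 6 of the 16 genes of the alveolar list are red. After bacterial control scaling, the differences of Bmpr1a, Stat5a, Jak2, Cebpb and Cish lay below 0.

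Genes of the alveolar programme in which Id2 acts rose in 6 of 16 tested members and fell in 0 (median log2 0.40, but -0.26 after bacterial control scaling, where 2 rose and 3 fell). With the probe sets of each gene averaged, 8 rose and 0 fell. Tnfrsf11a, which encodes RANK, the receptor for RANKL, had 1363.7, 1055.5 and 988.1 in the LH transgenic pools against 275.0, 378.3 and 205.1 in the wild type pools (log2 1.75, SE 0.22, adjusted p 0.000982). Its wild type mean of 286.1 lay below the brightness filter of 336, which it passed through its LH transgenic values. Elf5, a transcription factor of alveolar cells, had 28175.9, 30300.6 and 38743.7 in the LH transgenic pools against 17485.4, 17691.3 and 8466.0 in the wild type pools (log2 1.21, SE 0.26, adjusted p 0.0111). Like Id2, Elf5 was highest in LH transgenic pool 3 and lowest in wild type pool 3. The prolactin pathway genes Stat5a (log2 0.41, adjusted p 0.031), Jak2 (log2 0.63, adjusted p 0.0369) and Cish (log2 0.54, adjusted p 0.0168) and the transcription factor gene Cebpb (log2 0.50, adjusted p 0.0229) also rose, and their differences were -0.28, -0.03, -0.13 and -0.19 after bacterial control scaling. With that scaling included, the calls of Stat5a, Jak2, Cebpb and Cish were lost under 8, 7, 5 and 3 of 16 other settings. A dimmer Stat5a probe set was also called higher (0.77, adjusted p 0.0111). Nfic was not called by its brightest probe set (0.38, adjusted p 0.242). A dimmer one, with a mean signal of 358.4 near the filter, was called higher (1.75, adjusted p 0.011).

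A list of 7 tested genes set beside Id4 in mammary epithelium had 3 that fell and 1 that rose. Foxa1, a cofactor of the estrogen receptor, had 1185.9, 834.6 and 1535.9 in the LH transgenic pools against 3926.7, 2229.8 and 2515.7 in the wild type pools (log2 -1.23, SE 0.25, adjusted p 0.00842). Notch3, a Notch receptor, averaged 2177 ± 183.2 in LH transgenic and 3907 ± 149.5 in wild type glands (log2 -0.82, adjusted p 0.00229), and Sparcl1, a matrix-associated glycoprotein gene, 2814 ± 797.1 in LH transgenic and 4882 ± 563.3 in wild type glands (log2 -0.81, adjusted p 0.0164, a call lost under 3 of 16 other settings). Sox10 rose, with 10355 ± 1147 in LH transgenic and 6075 ± 836.1 in wild type glands (log2 0.76, adjusted p 0.00592, and 0.44 with adjusted p 0.0706 in a dimmer probe set), a call lost after bacterial control scaling, where the difference was 0.08. Brca1, which Id4 has been reported to repress in human cells, averaged 394.9 ± 75.0 in LH transgenic and 356.7 ± 31.5 in wild type glands (log2 0.11, adjusted p 0.752, and -0.45 after bacterial control scaling). Esr1, the estrogen receptor gene, lay below the filter, with signals of 187.2 to 417.9 in LH transgenic and 96.9 to 274.6 in wild type glands. In the Notch pathway, 2 of 12 tested genes fell and 0 rose by their brightest probe sets. Those that fell were Notch3 and Mfng, a glycosyltransferase that modifies Notch receptors (827.3 ± 64.0 in LH transgenic and 2708 ± 489.6 in wild type glands, log2 -1.61, SE 0.16, adjusted p 0.000428). The probe sets of Notch1, a member of both lists, disagreed. Its brightest was not called (log2 -0.06, adjusted p 0.794), but a dimmer one was called higher (0.94, adjusted p 0.0396).

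Over the 12 lists together, with each gene counted once, 9 of 91 tested genes rose and 16 fell, which is 27.5% called against 21.3% of all probe sets. Without wild type pool 1 there were 4 and 10, and without wild type pool 3 there were 4 and 11. After bacterial control scaling there were 2 and 56, of 4025 calls over all probe sets of which 3.33% were higher, against 49.2% as deposited.

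Markers of several cell types moved with the Id genes, and their part in the Id differences was not tested. Of 13 tested endothelial markers 10 fell (median log2 -0.87). Sums here and below cover all markers of a list on the array, tested or not. The sum of the 14 endothelial ones was 20976 to 24082 in LH transgenic pools against 42428 to 49826 in wild type pools. Of 13 adipocyte markers 10 fell (median -1.34), with sums of 124927 to 135535 in LH transgenic and 200397 to 229602 in wild type pools. Of 17 fibroblast and matrix markers 11 fell (median -0.84), with sums of 110856 to 139170 in LH transgenic and 169455 to 223584 in wild type pools. All 3 lists lay lower in every LH transgenic pool than in every wild type pool, as did Id1, Id3 and Id4. In the other direction, 13 of 16 milk and alveolar markers rose (median 1.12, or 7 of 16 with a median of 0.44 after bacterial control scaling), with sums of 765180 to 949830 in LH transgenic and 317543 to 531082 in wild type pools. Macrophage markers rose in 5 of 11 tested members (median 0.60, but -0.08 after bacterial control scaling). The sums of all 14 were 82743 to 98167 in LH transgenic and 47812 to 64846 in wild type pools. Of 5 tested B and plasma cell markers 1 rose (median 0.25, but -0.51 after bacterial control scaling, with 4 tested). Of 3 tested T, NK and innate lymphoid cell markers 1 rose (median -0.11, and -0.7 after bacterial control scaling). Luminal and basal lists moved in both directions, with 5 luminal markers of 14 tested higher and 3 lower, and 2 basal markers of 10 tested higher and 2 lower. After bacterial control scaling the luminal and basal medians of 0.28 and 0.08 became -0.39 and -0.61. The luminal sums, of 16 markers, did not overlap, at 111099 to 132593 in LH transgenic and 88352 to 95034 in wild type pools. The mean log2 of the 14 tested ones, relative to the wild type mean, did overlap (-0.01 to 0.13 in LH transgenic and -0.1 to 0.11 in wild type pools). The basal sums, of 13 markers, were 60870 to 61890 in LH transgenic and 54952 to 63432 in wild type pools. In each list 0 markers were at a signal of 0.

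Within groups, Id2 and the milk and alveolar markers had different orders in the LH transgenic pools and the same order in the wild type pools. LH transgenic pool 3 had the highest Id2 and the lowest mean of milk markers of its group (-0.29 on the log2 scale relative to the group mean), while wild type pool 3 was the lowest of its group for both (-0.42 for Id2 and -0.56 for the milk markers) and wild type pool 2 the highest for both (0.32 for Id2 and 0.49 for the milk markers). LH transgenic pool 3 was also the pool with the most skeletal muscle signal of its group. With the muscle level as a covariate the differences of Id1, Id2, Id3 and Id4 were -1.34, 1.69, -1.01 and -0.85, with SE of 0.24, 0.26, 0.34 and 0.24. That level was 0.59, 0.71 and 0.53 in the wild type pools and -1.35, -1 and 0.52 in the LH transgenic pools (log2, relative to the mean of all arrays). It thus followed the groups except in LH transgenic pool 3, on which these values largely rest, and they cannot separate muscle from group.

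**Figure D3:**
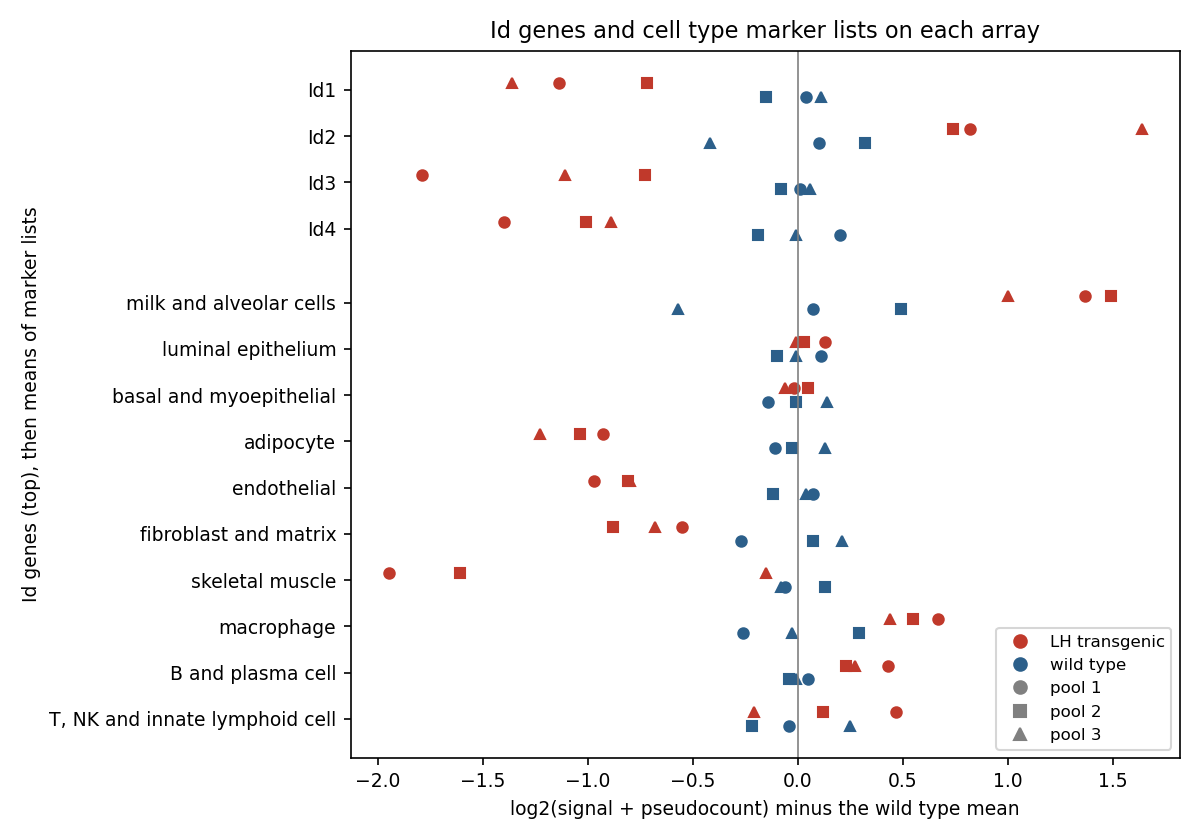
Log2(signal + 80) of the Id genes and mean log2 of 10 cell type marker lists on each array, minus the wild type mean, LH transgenic arrays in red above wild type arrays in blue, with a symbol per pool. Id1, Id3 and Id4 lie on the same side as the adipocyte, endothelial and fibroblast lists in every LH transgenic pool. Id2 lies on the side of the milk, macrophage, and B and plasma cell lists. Muscle markers of LH transgenic pool 3 (-0.15) lie near the wild type pools.

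The genes with the profile nearest to each Id gene were found among 5727 genes by the root mean square difference over the 6 arrays of log2 values centred on their own mean. This likeness holds the difference between the groups as well as the pattern among pools, and says nothing of shared control. Because the genes were chosen by it, a shared order of pools follows from the choice and is no separate result. For Id2 the nearest were Crabp2, a retinoic acid binding protein gene (0.09), the peptide transporter gene Slc15a2 (0.11), Ide, insulin-degrading enzyme (0.16), and Cd5l, a secreted macrophage protein gene (0.16). Crabp2 had 2932.7, 3222.3 and 5369.7 in the LH transgenic pools against 1723.5, 2332.8 and 1198.5 in the wild type pools, highest in LH transgenic pool 3 and lowest in wild type pool 3. Cd5l was dim in the wild type pools (125.5 to 245.5).

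For Id1 the nearest were the adenylate cyclase gene Adcy4 (0.10), Rbms2 (0.13), Crat, carnitine acetyltransferase (0.13), and Nnmt, nicotinamide N-methyltransferase (0.14). Adcy4 had 1013.1, 1154.6 and 873.6 in the LH transgenic pools against 2157.3, 2139.1 and 2350.6 in the wild type pools. For Id3 they were Vnn1 (0.14), the DNA repair gene Mutyh (0.17), Strn4 (0.18) and Plxnd1, a semaphorin receptor of endothelial cells (0.19). Chosen for likeness, all 4 were lowest in LH transgenic pool 1, as was Id3. There Vnn1 and Mutyh had signals of 95.9 and 98.9, near the pseudocount of 80. For Id4 they were Cyp4b1 (0.12), Plpp1 (0.12), the transcription factor gene Ebf3 (0.13) and the phospholipase gene Plcd1 (0.13). By the same measure Id1, Id3 and Id4 lay 0.23 to 0.28 from each other and 1.14 to 1.24 from Id2.

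**Figure D4:**
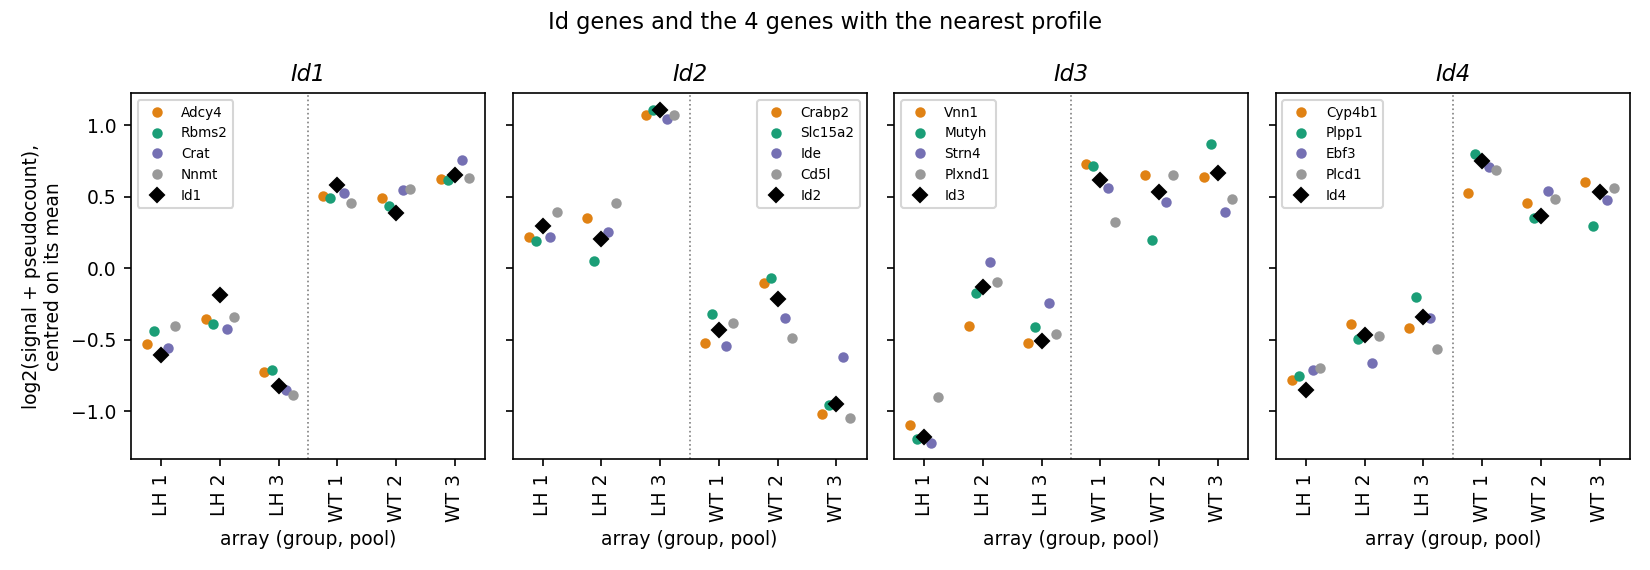
Log2(signal + 80), centred on its mean over the 6 arrays, of each Id gene (black diamonds) and its 4 nearest genes (coloured points), LH transgenic pools left of wild type pools. The genes were chosen for likeness to these profiles. That the nearest genes of Id2 are high in LH transgenic pool 3, and those of Id3 low in LH transgenic pool 1, follows from this choice.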

How the data were processed

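Per the submitters' processing notes the authors deposited linear MAS5 signals, an intensity for each probe set on each array. Detection calls were not used here, and the sources name no MAS5 version or build. RNA of 3 mice was pooled per array, per the labels. Groups came from the source names, and pool numbers follow accession order and pair nothing. Of 12488 probe sets, 10833 were annotated to 1 gene, 396 to several, 1193 to none, and 66 were controls. The precision is limited by 3 arrays per group.

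From the deposited intensities log2(signal + 80) was computed, with the 20th percentile of all values (80) as pseudocount, which understates differences of dim genes. The 7453 probe sets averaging 336 or more over the arrays (40th percentile) were fitted with limma (lmFit, eBayes with a trend, two-sided, no covariates), and p-values were Benjamini-Hochberg adjusted over all of them, with a threshold of 0.05. A gene with several probe sets was represented by its brightest. Per rule, the text names every Id gene, up to 6 called genes per list, 16 genes named in any case and the 4 nearest profiles per Id gene. Cdkn1b, Cdkn2a, Cdkn2b, Krt5, Krt14 and Krt15, which lay below the filter, were named after their values were seen. So were Nfic and Notch1, for dimmer probe sets that were called. Members and lists were chosen with earlier results of these data known. The fit was tested on simulated data for this comparison (7453 probe sets): it found 20% of true 1.5-fold changes, 82% of 2-fold, 84% of 3-fold and 88% of 4-fold ones, with 11 false among 148 calls. Only 50 probe sets were changed at each size, with independent noise, and any that failed the filter counted as missed. In the data 1586 were called, so these rates need not hold for the real arrays. Promoter windows came from RefSeq. Other settings were quantile normalization, median centring, bacterial control scaling, no pseudocount with a floor at 16.8, a pseudocount of 325.5, no filter and a filter at 1510.2. Further ones were eBayes without a trend or robust, leaving out each array, and averaging the probe sets of each gene. A skeletal muscle covariate is reported for the Id genes only, and is not among the settings counted for other genes. Fits used limma 3.58.1 in R 4.3.3, and tables and plots used pandas 2.3.3 and matplotlib 3.10.9 in Python 3.11.15.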

Additional observations from a re-analysis of the deposited data

How the results depend on the processing

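The estimated difference of Id2 stayed above 0 and those of Id1, Id3 and Id4 below 0 under each of the 15 or 16 other settings in which they could be measured. Id1 and Id4 have no value under the stricter filter. Leaving out one array at a time gave 0.78 to 1.23 for Id2, -1.25 to -0.93 for Id1, -1.45 to -0.92 for Id3 and -1.21 to -0.95 for Id4. After bacterial control scaling the values were 0.38, -1.72, -1.87 and -1.74 in that order, with SE of 0.24, 0.27, 0.27 and 0.27. The small value of Id2 was thus uncertain relative to its SE under that setting. The skeletal muscle covariate was low only in LH transgenic pools 1 and 2. With it Id2 had 1.69, Id1 -1.34 and Id4 -0.85, and the cause of these moves was not tested. Over all probe sets 949 to 1635 were called without one array, 443 to 740 of them higher and 506 to 895 lower. Bacterial control scaling gave 4025, 134 higher and 3891 lower, and the stricter filter, which tests fewer probe sets, left 531 lower. In the gene lists 4 to 7 genes rose and 10 to 20 fell without one array, 2 rose and 56 fell with bacterial control scaling, and 9 fell with the stricter filter. Averaging the probe sets of each gene gave 11 higher and 18 lower. Signs turned with bacterial control scaling for Bmpr1a (-0.03), Brca1 (-0.45), Cebpb (-0.19), Cish (-0.13), Jak2 (-0.03), Krt18 (-0.65), Smad1 (-0.59), Stat5a (-0.28), Tcf12 (-0.57) and Tcf3 (-0.38). Leaving out one array gave -0.03 to 0.16 for Krt18 (-0.03 without either of wild type pool 2 and LH transgenic pool 1, -0.01 without LH transgenic pool 2) and -0.02 to 0.19 for Tcf12 (-0.02 without LH transgenic pool 3). No paired analysis was possible because pool numbers come from accession order and the labels pair no arrays. With 1 probe set per Id gene and detection calls not used, probe-specific effects could not be checked.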
